A study of Homo sapiens with 40 samples.

Results

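The data described are the replicated CENP-A peak lists of SW480 cells after knockdown of HIRA and after knockdown of HJURP. The members are all peaks of these 2 lists, 848 and 940, together 1788 of the 5748 peaks in the 6 lists of the series. Peaks that touched a centromere band of hg19 were set aside, and the others, called ectopic, were 641 HIRA knockdown peaks and 763 HJURP knockdown peaks, 1404 in all. An ectopic peak was shared when at least 1 of its bases lay in an ectopic peak of the other list, and was otherwise HIRA-only or HJURP-only.

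SW480 cells are a long-established line from a human colon cancer. All groups used here received 72 hours of siRNA treatment, named in the labels as siHIRA, siHJURP, siDAXX, siHIRA_DAXX and siHJURP_HIRA, with control cells that the labels call Untreated and the study's methods describe as control siRNA. Chromatin was cut with MNase without crosslinking, and CENP-A nucleosomes were pulled down with ACA serum, a human serum against centromere proteins. The series has 40 libraries, 20 ChIP and 20 input, with 4 ChIP libraries for control and for each single knockdown and 2 for each double knockdown. A figure legend of the study speaks of 3 replicate experiments, and the lists do not show which libraries entered them. Each condition was reduced to 1 list of positions with no score, so neither the depth of a library nor the depletion of HIRA or HJURP can be read from these lists, no test between the conditions was possible, and the intervals given are 95% Wilson intervals that cover counting error only.

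CENP-A is the histone H3 variant that marks active centromeres. HJURP is its dedicated chaperone, which binds soluble CENP-A and assembles it at centromeres after mitosis. HIRA is a chaperone of the H3 variant H3.3 and places it at active genes and at other sites of nucleosome turnover outside S phase. DAXX, with ATRX, places H3.3 in heterochromatin and repeats. Human centromeres are built on alpha satellite, a tandem repeat of short monomers, some copies of which carry the CENP-B box, the binding site of CENP-B. Blocks of GGAAT repeats flank several centromeres.

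The sequences below show what kind of DNA lay under the widest peaks of each class outside the 8q arm, and the reagent that defined one of the conditions. Each peak sequence is the central 200 bases of the peak on the plus strand of hg19, and capitals mark runs of at least 3 tandem GGAAT. The HIRA-only sequence lies at chr16:32553885-32554084, the HJURP-only sequence at chr21:10799007-10799206 and the shared sequence at chr16:33975253-33975452, all intergenic.
HIRA-only: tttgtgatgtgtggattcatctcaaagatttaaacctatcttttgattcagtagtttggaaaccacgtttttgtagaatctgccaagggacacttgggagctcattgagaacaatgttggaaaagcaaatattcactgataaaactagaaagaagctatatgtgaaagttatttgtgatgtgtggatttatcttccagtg
HJURP-only: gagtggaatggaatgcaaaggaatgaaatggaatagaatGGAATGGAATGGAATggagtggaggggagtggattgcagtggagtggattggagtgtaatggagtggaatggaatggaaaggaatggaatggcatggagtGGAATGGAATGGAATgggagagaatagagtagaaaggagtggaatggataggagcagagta
shared: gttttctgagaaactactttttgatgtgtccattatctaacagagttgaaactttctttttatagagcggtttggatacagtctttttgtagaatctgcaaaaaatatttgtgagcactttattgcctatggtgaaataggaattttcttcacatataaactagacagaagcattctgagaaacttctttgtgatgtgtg

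Another pair of sequences shows ordinary arm DNA, from the widest exon-free HIRA-only and HJURP-only peaks of a segment of 12p that was singled out after the values were seen. The HIRA-only sequence lies at chr12:26918204-26918403, in an intron of ITPR2, and the HJURP-only sequence at chr12:27085676-27085875, in an intron of INTS13. The siRNA against HJURP is the sense strand from the study's reagent list, with its UU overhang in capitals. Its first 19 bases had 1 match in hg19, on the minus strand at chr2:234749460-234749478, in the coding part of exon 8 of HJURP. The sequence of the siRNA against HIRA was not used here.
HIRA-only, 12p: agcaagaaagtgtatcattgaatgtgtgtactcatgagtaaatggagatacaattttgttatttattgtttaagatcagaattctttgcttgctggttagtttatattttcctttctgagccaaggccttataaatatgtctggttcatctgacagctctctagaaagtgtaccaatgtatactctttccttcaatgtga
HJURP-only, 12p: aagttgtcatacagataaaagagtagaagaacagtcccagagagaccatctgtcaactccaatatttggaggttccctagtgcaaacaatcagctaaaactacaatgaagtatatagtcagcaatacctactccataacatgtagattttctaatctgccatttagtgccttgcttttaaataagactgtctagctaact
siRNA against HJURP: cuacugggcucaacugcaaUU

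Each peak was searched for 3 features, which the later counts also use. One was the core of the CENP-B box, TTCGNNNNANNCGGG, on both strands, and one was at least 3 tandem GGAAT on either strand. The last was the alpha satellite period, a match of at least 50% of bases with the base 1 monomer length further on, give or take 2 bp, which GGAAT repeats can also meet. The widest HIRA-only and shared peaks had no GGAAT repeat, and 49.6% and 49.4% of their bases matched at that period, just short of the minimum. Missing the minimum does not show that the period is absent from these peaks. In both printed sequences a run of bases at or near the start recurs near the end, about 1 monomer length further on. The widest HJURP-only peak shown held 12 runs of GGAAT. The 12p peaks had 29.3% and 28.9% of matching bases and no run of GGAAT, and none of the 5 peaks held the CENP-B box core.

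After HJURP knockdown the ectopic list was larger, and less of it was found in the other list, though both statements rested on chromosome 8. The HIRA knockdown list covered 706.9 kb in its 641 ectopic peaks and the HJURP knockdown list 953.5 kb in 763, which is 1.19 times as many peaks and 1.35 times the bases. Without chromosome 8 both ratios fell below 1, to 0.806 and 0.805, and when peaks within 10000 bp were joined into sites the ratio of their numbers was 0.854. Of the HIRA knockdown peaks, 418 were shared (65.2%, interval 61.4 to 68.8) and 223 were HIRA-only (34.8%). Of the HJURP knockdown peaks, 399 were shared (52.3%, interval 48.7 to 55.8) and 364 were HJURP-only (47.7%). By bases, the lists had 497.2 kb in common, 70.3% of the HIRA knockdown coverage and 52.1% of the HJURP knockdown coverage. The order of the shared parts turned once chromosome 8 was left out, with 57.7% of HIRA and 71.6% of HJURP knockdown peaks shared, and by sites the parts were 60.9% and 61.0%. The unshared bases came to 209.7 kb and 456.3 kb, and most of these lay in whole peaks of that list alone, 155.5 kb and 342.3 kb.

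The lists differed in opposite directions at different places. At 8q24, the HIRA knockdown list had 156 peaks over 225.4 kb and the HJURP knockdown list 372 peaks over 565.8 kb. Within 5 Mb of a centromere gap, called pericentromeric here, the order was the other way, with 370 HIRA knockdown peaks over 400.8 kb and 298 HJURP knockdown peaks over 329.1 kb. On the rest of the arms there were 115 and 93 peaks, over 80.7 kb and 58.6 kb. In the centromere bands, outside the ectopic count, there were 207 and 177 peaks. The HJURP knockdown list thus exceeded the HIRA knockdown list at 8q24 alone of these 4 places, but on the other arms the order rested on a segment of 12p, without which the HJURP knockdown list was the larger there too, with 61 peaks over 38.6 kb against 52 peaks over 34.4 kb.

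**Figure D1:**
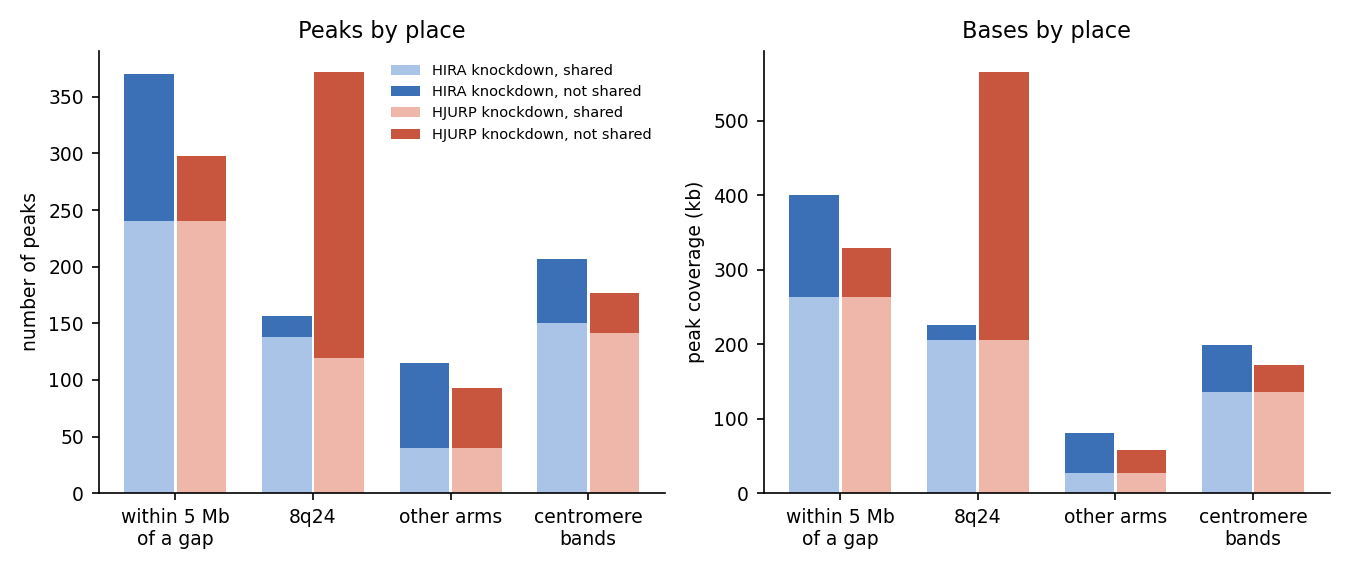
Number of peaks (left) and peak coverage in kb (right) of the HIRA knockdown (blue) and HJURP knockdown (red) lists by place, with the part shared with the other list in the light shade. At 8q24 the HJURP knockdown bar reaches 372 peaks, 253 of them in that list alone, while at each other place the HIRA knockdown bar is the taller.

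The set-specific peaks followed the same split. Of the 364 HJURP-only peaks, 253 lay at 8q24 (69.5%, interval 64.6 to 74.0), 58 were pericentromeric (15.9%) and 53 lay on other arms (14.6%). Of the 223 HIRA-only peaks, 18 lay at 8q24 (8.07%, interval 5.17 to 12.4), 130 were pericentromeric (58.3%) and 75 lay on other arms (33.6%). When peaks within 10000 bp were joined into sites, 28.1% of HJURP-only and 0% of HIRA-only sites lay at 8q24, and among peaks 5 Mb or more from a gap the shares were 82.7% and 19.4%. The shared peaks of the lists overlap by definition, so a like spread by number was largely fixed in advance. Of this class, 57.4% of the HIRA and 60.2% of the HJURP knockdown peaks lay in pericentromeric DNA, and 55.1% and 48.2% of the bases. Nearly the whole HIRA knockdown list at 8q24 was therefore nested in the HJURP knockdown list: 88.5% of its peaks (interval 82.5 to 92.6) and 91.3% of its bases were shared, against 32.0% of the peaks and 36.3% of the bases of the HJURP knockdown list there. In pericentromeric DNA the nesting ran the other way, less strongly, with 80.5% of HJURP knockdown peaks shared (interval 75.7 to 84.6) and 64.9% of HIRA knockdown peaks (interval 59.9 to 69.6).

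By chromosome, the excess of HJURP knockdown coverage lay on chromosome 8. There the HJURP knockdown list held 340.4 kb more, and over all other chromosomes together it held 93.8 kb less. Of the 22 chromosomes with a peak, 14 had more coverage after HIRA knockdown and 8 after HJURP knockdown. Chromosome 12 had 64 HIRA knockdown peaks, 52 of them HIRA-only, against 33, of which 22 were HJURP-only. Chromosome 16 had 57 HIRA knockdown peaks, 20 of them HIRA-only, while 35 of 37 HJURP knockdown peaks were shared. Chromosomes 2 and 7 were alike in this, with 14 and 15 HIRA-only peaks against 4 and 6 HJURP-only peaks. Chromosome 21 had close numbers, 82 and 85, and most of its peaks were shared in both lists.

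**Figure D2:**
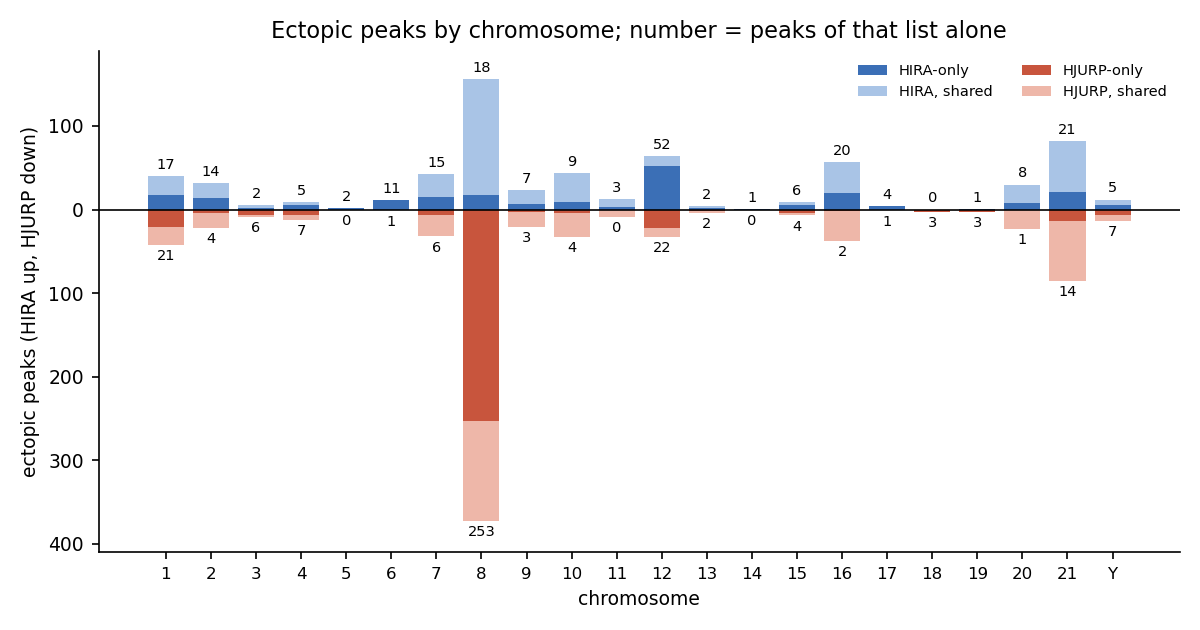
Ectopic peaks per chromosome in the HIRA knockdown list (upward, blue) and the HJURP knockdown list (downward, red); dark bars and the printed numbers are peaks of that list alone, light bars shared peaks. Chromosome 8 carries 253 HJURP-only and 18 HIRA-only peaks, and chromosome 12 carries 52 HIRA-only and 22 HJURP-only peaks.

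At 8q24, a band rich in long non-coding RNA genes around the oncogene MYC, the HJURP knockdown list was longer in each of 5 intervals, and the more so near MYC. In the gene desert at the proximal end there were 50 HIRA and 87 HJURP knockdown peaks, a ratio of 1.74. On the PCAT1 side the numbers were 47 and 98, and in the interval of CASC8 and POU5F1B 22 and 72, a ratio of 3.27. In the interval of MYC and PVT1 there were 2 and 19 peaks. The distal end had 35 and 96. The ratio over the whole band was 2.38 by peaks and 2.51 by bases. The study reports that this locus is amplified in SW480 cells. By FISH it counted more 8q24 loci per cell after HJURP knockdown than with control siRNA. Copy number of the band was not analysed here, and its part in the result was not tested.

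**Figure D3:**
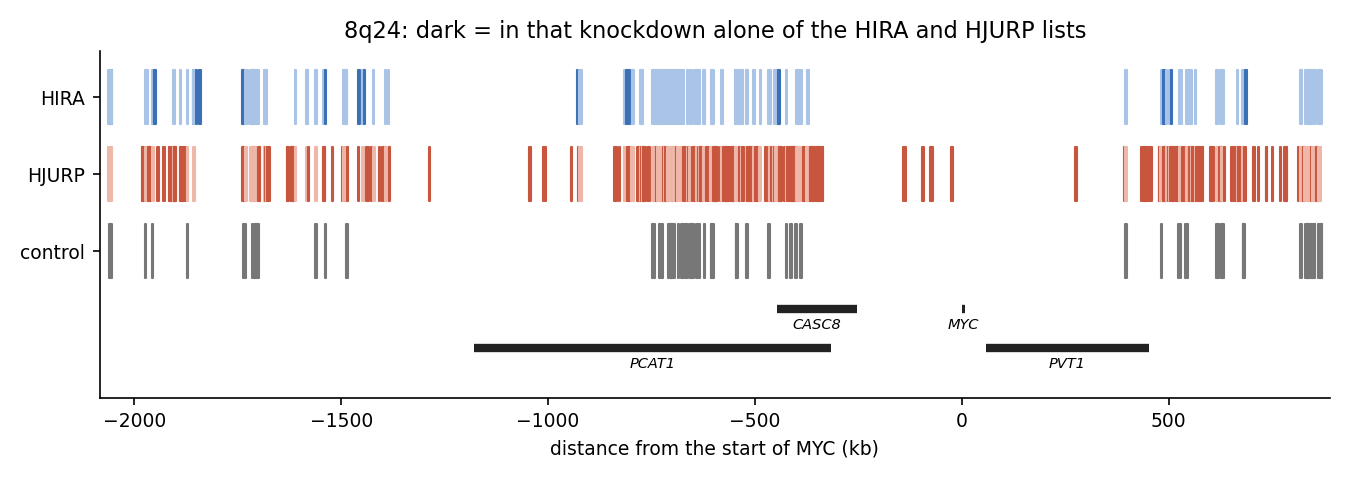
Peaks at 8q24 after HIRA knockdown (blue), after HJURP knockdown (red) and in control (grey), by distance from the start of MYC in kb; dark peaks are in that list alone of the HIRA and HJURP lists, and narrow peaks are drawn at a minimum width. HJURP-only peaks lie between and beside the clusters of shared peaks, and the nearest HJURP knockdown peak is 24.7 kb from MYC against 373.0 kb for HIRA knockdown.

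The 8q24 genes were long non-coding RNA genes for the most part. PCAT1, which overlaps several of the others, held 69 HIRA knockdown peaks, 4 of them HIRA-only, and 170 HJURP knockdown peaks, 115 of them HJURP-only. CASC19 held 19 and 51 peaks, with no HIRA-only peak and 36 HJURP-only peaks. CASC8 held 9 and 38. LINC00824 held 4 and 22, and the unnamed lncRNA gene ENSG00000286034 held 5 and 14. At LINC00861 and LINC02964, in the proximal desert, the lists were closer, with 34 and 45 peaks and with 22 and 37, and each gene held 8 HIRA-only peaks. Some peaks lie in both gene bodies and count for each.

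POU5F1B, a retrogene of the pluripotency factor POU5F1 and the protein-coding gene with most peaks, held 4 HIRA knockdown peaks, all shared, and 29 HJURP knockdown peaks, 25 of them HJURP-only. PVT1, a lncRNA gene next to MYC, held 2 and 11 peaks. CCAT2 held 1 HJURP knockdown peak and none after HIRA knockdown. MYC itself, LRATD2, TRIB1, GSDMC and ASAP1 held no peak in either list. LRATD2 was 203.3 kb from the nearest HIRA knockdown peak and 104.4 kb from the nearest HJURP knockdown peak. TRIB1, which is outside the cluster, was about equally far from both lists at 233.6 kb and 233.7 kb. Of 11 genes listed for this band, 10 were found in the annotation, 4 with a HIRA and 5 with an HJURP knockdown peak; CCAT1 was not matched.

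Much of the difference at 8q24 lay inside or beside the same clusters. When peaks of a list within 10000 bp of each other were joined into sites, both lists gave 40 sites at 8q24. All 40 HIRA knockdown sites overlapped an HJURP knockdown site, and 22 of the 40 HJURP knockdown sites overlapped a HIRA knockdown site. The HJURP knockdown sites were longer, spanning 1035.8 kb against 485.3 kb, and held 9.3 peaks per site against 3.9. The longest site measured 329.8 kb after HJURP knockdown and 114.3 kb after HIRA knockdown. Of the 253 HJURP-only peaks at 8q24, 188 lay within 10 kb of a HIRA knockdown peak (74.3%), at a median distance of 3.59 kb over all 253. The 18 HIRA-only peaks lay a median of 0.758 kb from the nearest HJURP knockdown peak.

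The widest peaks at 8q24 were alike in place and differed in extent. The widest shared HIRA knockdown peak there, in an intron of PCAT1 at chr8:128037753-128047303, measured 9551 bp and matched 1 HJURP knockdown peak of 11673 bp. The next widest, at chr8:129599145-129604548 and chr8:129610220-129614748, measured 5404 and 4529 bp against 10466 and 9340 bp after HJURP knockdown. All 3 also had a peak in control and in the other 3 lists. The widest HJURP-only peaks were an intronic PCAT1 peak of 4832 bp at chr8:128078048-128082879, a peak of 3847 bp in an intron of LINC02964 and a peak of 3807 bp over an exon of CASC19. These lay 0.508, 0.967 and 0.44 kb from a HIRA knockdown peak. The PCAT1 peak also had a peak in control and in the other 3 lists. The LINC02964 and CASC19 peaks had none in control, but each had a peak in the DAXX and HIRA+HJURP lists. The widest HIRA-only peaks at 8q24 were narrower, at 1336, 1058 and 976 bp, in introns of PCAT1 (the first 2) and LINC02964.

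Where 1 peak of each list matched 1 of the other, the widths were close outside 8q24. There were 290 such pairs, and the median ratio of HJURP to HIRA knockdown width was 1.03 (quartiles 0.897 and 1.25). In pericentromeric DNA it was 1.01 over 159 pairs and on other arms 0.934 over 37 pairs. At 8q24 it was 1.19 over 94 pairs, and the HJURP knockdown peak was the wider in 72 of them. A HIRA knockdown peak lay wholly inside its partner in 47 of these 94 pairs, and the reverse held in 9.

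Peaks of 1 list alone were narrower than shared peaks. Since 1 base in common made a peak shared, a wider peak was more likely to be shared, so this order was partly fixed in advance. The median width was 498 bp for HIRA-only and 928.5 bp for shared HIRA knockdown peaks, and 723 bp for HJURP-only and 946 bp for shared HJURP knockdown peaks. Among HIRA knockdown peaks, the shared part rose from 47.9% of those under 500 bp (interval 41.3 to 54.6) to 93.4% of those of 2000 bp or more (interval 85.5 to 97.2). Among HJURP knockdown peaks it rose from 45.7% (interval 38.6 to 52.9) to 75.4% (interval 66.9 to 82.3). The wide peaks found after HJURP knockdown alone were all at 8q24: 29 HJURP-only peaks reached 2000 bp, and all 29 lay there. Only 5 HIRA-only peaks reached that width, 4 of them pericentromeric.

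In pericentromeric DNA, the HIRA knockdown list had the wide set-specific peaks. The widest was the 9596 bp peak at chr16:32549187-32558782, with a neighbour of 2962 bp at chr16:32559137-32562098. Both also had a peak in the control and DAXX lists, and the nearest HJURP knockdown peaks were 20.6 and 30.5 kb away. The cluster they belong to spanned 46.7 kb and had 7 HIRA knockdown peaks over 17.4 kb against 2 HJURP knockdown peaks over 1.95 kb. On chromosome 7, HIRA-only peaks of 4282 and 2980 bp lay at chr7:61879761-61884042 and chr7:61884124-61887103, and the nearest HJURP knockdown peaks were 1.94 and 0.628 kb away. Those 2 peaks were also present in each of the other 4 lists.

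The widest HJURP-only peaks outside 8q24 were shorter, from 1209 to 1975 bp. The widest, at chr21:10798120-10800094, lay 0.23 kb from a HIRA knockdown peak and had no counterpart in control. The next were at chr1:142535474-142536825, chr21:10776522-10777765, chr15:20857779-20858996 and chr9:66479086-66480294, and of the 5 the last alone had a control peak. The 5 widest shared peaks measured 6472 to 8862 bp after HIRA knockdown, on chromosomes 16, 21 and 7, and all 5 had a peak in every list. The widest overlap partner was an HJURP knockdown peak of 14700 bp at chr21:10708901-10723600, against 7092 bp after HIRA knockdown.

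PRIM2, which encodes a subunit of the DNA primase and lies beside the centromere of chromosome 6, was the pericentromeric gene with most HIRA-only peaks. It held 10 HIRA knockdown peaks over 9.71 kb, all HIRA-only, and 1 HJURP knockdown peak of 1.07 kb, which matched none of them. The peaks spanned 99.5 kb, and 2 of the HIRA-only peaks, of 1296 and 859 bp, overlapped an exon. Of the 10 peaks, 3 were also in control and 1 in the DAXX list, while the 2 exonic peaks were in neither of these nor in a double knockdown list. A lncRNA gene, ENSG00000290597, covers the same peaks. PRIM2 has near-identical copies in the genome, so the placement of reads there is uncertain.

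Peaks at 8q24 lay on sequence without satellite features. The CENP-B box core, the GGAAT repeat and the alpha satellite period were searched in the 1000 bp around the middle of each peak. Of 2858365 windows of that length over the genome, 0.0536%, 0.0377% and 0.218% held them, in that order. At 8q24 none of the 156 HIRA and 372 HJURP knockdown windows held any of the 3.

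The features were found mainly near centromeres, though not on every chromosome: the pericentromeric windows of chromosomes 6, 15 and 20 (11, 16 and 53 windows) held none of the 3. On other arms, HIRA-only windows held 1 alpha satellite period in 75 and neither other feature. In pericentromeric DNA, the CENP-B box core was in 16.7% of shared and 4.62% of HIRA-only windows of the HIRA knockdown list, and in 15.1% of shared and 12.1% of HJURP-only windows of the HJURP knockdown list. GGAAT repeats were in 25.1% and 19.2% of the HIRA knockdown windows and in 29.7% and 22.4% of the HJURP knockdown windows, in the same order. The alpha satellite period without GGAAT repeats was in 55 of 239 shared windows and 15.4% of HIRA-only windows of the HIRA knockdown list, and in 21.8% and 12.1% of the corresponding HJURP knockdown windows. The CENP-B box core was thus found in 6 of 130 HIRA-only and 7 of 58 HJURP-only windows. In the centromere bands it was in 43.9% of shared HIRA and 41.7% of shared HJURP knockdown windows. A match of letters is not evidence of binding, and reads in repeats were kept only where the aligner placed them with a mapping quality of at least 10.

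The other arms held a cluster on 12p, noticed after the values were seen, where the HIRA knockdown list was the longer. Between the first and the last peak, chr12:21882899-27517674, the HIRA knockdown list had 63 peaks over 46.3 kb and the HJURP knockdown list 32 peaks over 19.96 kb. Of these, 51 were HIRA-only and 21 HJURP-only. The control list had no peak in this segment, and the DAXX, HIRA+DAXX and HIRA+HJURP lists had 23, 25 and 20. Of the 63 HIRA knockdown peaks, 55 (87.3%, interval 76.9 to 93.4) had no peak in the control, DAXX or double knockdown lists, and 44 of these were HIRA-only. Of the 32 HJURP knockdown peaks, 27 (84.4%, interval 68.2 to 93.1) had none there, and 17 of these were HJURP-only. Over all ectopic places, 38.1% of HIRA-only and 5.74% of shared HIRA knockdown peaks had none in those lists. For HJURP-only and shared HJURP knockdown peaks the shares over all places were 25.3% and 5.76%. Copy number of the segment was not analysed here, and its part in the result was not tested.

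**Figure D4:**
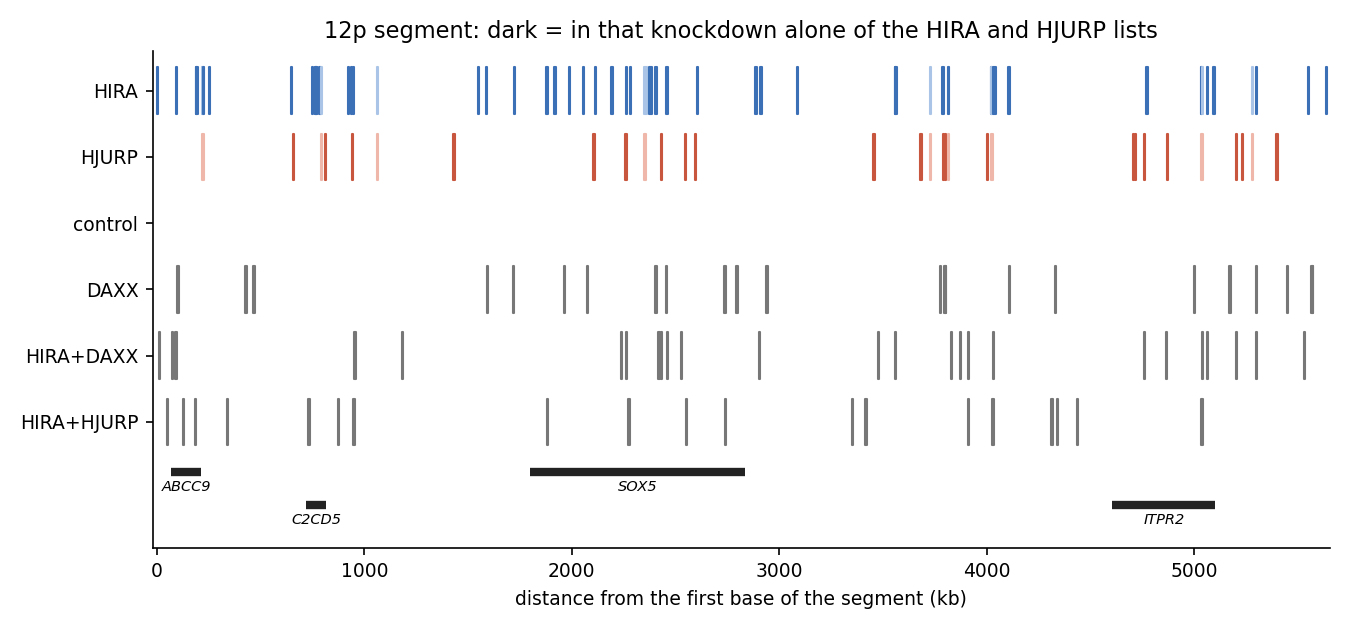
Peaks of the 6 lists in the 12p segment, by distance from its first base in kb; dark blue and dark red mark peaks found in the HIRA or the HJURP knockdown list alone of the pair, and narrow peaks are drawn at a minimum width. The HIRA knockdown row holds 63 peaks, the HJURP knockdown row 32 and the control row none.

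The peaks in the segment were narrow and mostly single. Their median width was 673 bp after HIRA knockdown and 527 bp after HJURP knockdown, and joining within 10000 bp left 45 and 29 sites. Of the 25 protein-coding genes in the segment, 13 held a HIRA and 10 an HJURP knockdown peak. None of the 63 and 32 windows held a CENP-B box core, GGAAT repeat or alpha satellite period, and the median GC content was 32.9% and 35.05%.

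SOX5, a transcription factor gene of the SOX family, held 16 HIRA knockdown peaks, 14 of them HIRA-only, and 7 HJURP knockdown peaks, 5 of them HJURP-only. C2CD5, a gene for a calcium-binding protein of glucose transporter traffic, held 7 and 2 peaks. ABCC9, a subunit of ATP-sensitive potassium channels, held 3 HIRA knockdown peaks and none after HJURP knockdown. At ITPR2, an intracellular calcium channel, the lists had 6 peaks each, 2 of each shared. LMNTD1 held 4 and 5.

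Without the 12p segment, the order on the other arms turned. They held 52 HIRA knockdown peaks over 34.4 kb on 14 chromosomes, of which 28 were shared (53.8%, interval 40.5 to 66.7), and 61 HJURP knockdown peaks over 38.6 kb on 11 chromosomes, of which 29 were shared (47.5%, interval 35.5 to 59.8). The intervals of the shared parts overlap.

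In all, 84 protein-coding or lncRNA genes held an ectopic peak, 41 in both lists, 25 in the HIRA knockdown list alone and 18 in the HJURP knockdown list alone. Of the 45 protein-coding genes, 18 were in both lists, 20 in the HIRA knockdown list alone and 7 in the HJURP knockdown list alone. HIRA-only peaks lay in protein-coding genes in 29.1% of cases and HJURP-only peaks in 16.8%, against 7.18% and 7.52% of shared peaks. By place this order did not hold throughout: the shares were 12.3% and 12.1% in pericentromeric DNA, 0 of 18 peaks and 9.88% at 8q24, and 65.3% and 54.7% on other arms, where the HIRA-only peaks were mostly those of 12p. Shared peaks of both lists lay in protein-coding genes in 1.25% of cases in pericentromeric DNA and 57.5% on other arms. At 8q24 it was 2.90% of shared HIRA and 3.36% of shared HJURP knockdown peaks. Over all places, HJURP-only peaks lay in a gene of either kind more often, 67.9% against 43.5% of HIRA-only peaks. At 8q24 the order was the other way, with 77.9% of HJURP-only and 88.9% of the 18 HIRA-only peaks. On other arms it was 69.8% and 74.7%, and in pericentromeric DNA 22.4% and 19.2%.

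Set-specific peaks overlapped an exon of 12 protein-coding genes in the HIRA knockdown list and of 6 in the HJURP knockdown list. These were 15 of 223 HIRA-only and 7 of 364 HJURP-only peaks, of which 7 and 1 lay in the 12p segment. With exons of lncRNA genes counted too, the shares were 8.97% of HIRA-only and 9.62% of HJURP-only peaks. Among shared peaks they were 5.26% in the HIRA and 4.76% in the HJURP knockdown list. By place the excess over shared peaks did not hold throughout. At 8q24 the shares were 11.1% of HIRA-only and 11.6% of shared HIRA knockdown peaks. For HJURP-only and shared HJURP knockdown peaks there they were 10.7% and 10.9%. In pericentromeric DNA they were 4.62% and 2.08%, and 1.72% and 2.08%, in the same order. On other arms they were 16% and 2.5%, and 13.2% and 2.5%. The widest set-specific peak on a protein-coding exon was a 2036 bp HIRA-only peak at EGR1, an immediate early transcription factor, at chr5:137803682-137805717. It had no ectopic HJURP knockdown peak anywhere on its chromosome, but a control peak overlapped it. The same was true of control at HSPA13, a gene of the heat shock protein 70 family with a 1341 bp peak, at H3-3B, which encodes H3.3 itself, with a 573 bp peak, and at FAM72B with a 396 bp peak. These 4 were thus peaks of control and HIRA knockdown that the HJURP knockdown list lacked.

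Other exonic HIRA-only peaks had no control peak. They included those at MED21, a Mediator subunit (1892 bp), PRIM2, C2CD5 (1063 and 905 bp), SOX5 (911 and 363 bp), VMP1, an autophagy gene (681 bp), and ETNK1, an ethanolamine kinase (419 bp). Of these genes, MED21 alone had a DAXX peak at the site. The exonic HJURP-only peaks included those at KLRC4 and the read-through gene KLRC4-KLRK1, natural killer cell receptors (857 bp), NBPF1 (722 bp), ITPR2 (447 bp) and ZNF717, a zinc finger gene (445, 384 and 340 bp). None of these had a control peak. NBPF1, FAM72B and ZNF717 belong to families of near-identical copies, and their peaks are uncertain for that reason.

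ZNF717 was the protein-coding gene outside 8q24 with most HJURP-only peaks, 6 of 8, against 1 HIRA-only peak of 3. Of 20 genes listed for the CENP-A and H3.3 pathways, among them HIRA, HJURP, DAXX, ATRX, CENPA and the MIS18 genes, H3-3B alone held a HIRA knockdown peak and none held an HJURP knockdown peak. HJURP itself was 72606.3 kb from the nearest peak of either list.

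The classes differed in how often the other lists held them. The other lists differ in size, so shares in different lists are not on a like footing. Their ectopic peaks cover 396.9 kb in control, 1123.7 kb in the DAXX list, 301.2 kb in HIRA+DAXX and 632.7 kb in HIRA+HJURP. A control peak overlapped 53.1% of shared HIRA knockdown peaks (interval 48.3 to 57.8), 13.5% of HIRA-only peaks (interval 9.59 to 18.6) and 3.57% of HJURP-only peaks (interval 2.10 to 6.01). For shared HJURP knockdown peaks it was 51.4%. A DAXX knockdown peak overlapped 90.0% of shared peaks in both lists, 67.0% of HJURP-only peaks (interval 62.0 to 71.7) and 40.8% of HIRA-only peaks (interval 34.6 to 47.4). Without chromosome 8, the DAXX list held 45.9% of HJURP-only and 37.6% of HIRA-only peaks. By sites within 10000 bp, it held 48.4% and 18.7%. In none of the other 4 lists were 38.1% of HIRA-only peaks and 25.3% of HJURP-only peaks, an order that held on the other arms alone, as given below.

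**Figure D5:**
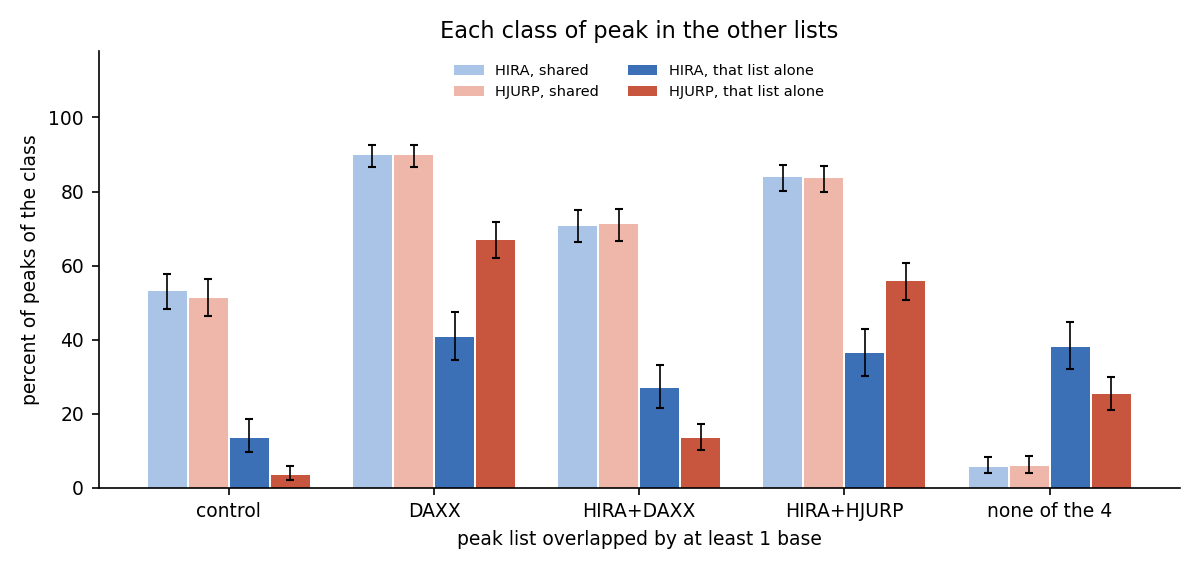
Percent of shared and set-specific ectopic peaks of the HIRA and HJURP knockdown lists that overlap a peak of each other list by at least 1 base; error bars are 95% Wilson intervals (counting error only). Over all places together, HJURP-only peaks overlap the DAXX list in 67.0% and control in 3.57%, and HIRA-only peaks in 40.8% and 13.5%.

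The double knockdown lists rest on 2 libraries each and hold narrower peaks, with ectopic medians of 285 bp for HIRA+DAXX and 293 bp for HIRA+HJURP, against 750 and 828 bp after HIRA and HJURP knockdown. The HIRA+HJURP list overlapped 83.7% of shared HJURP knockdown peaks, 55.8% of HJURP-only peaks (interval 50.6 to 60.8) and 36.3% of HIRA-only peaks (interval 30.3 to 42.8). The HIRA+DAXX list overlapped 71.2%, 13.5% and 26.9% of the same classes. Over all places, the order of the set-specific classes was therefore opposite in these lists. In the HIRA+HJURP list, the HJURP-only share was the higher in pericentromeric DNA (51.7% against 43.1%) and on other arms (28.3% against 17.3%). At 8q24 it was not, with 62.5% of HJURP-only and 66.7% of the 18 HIRA-only peaks. In the HIRA+DAXX list, the HIRA-only share was the higher at 8q24, in pericentromeric DNA and on other arms.

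By place, the HJURP-only peaks at 8q24 were in the DAXX list in 193 of 253 cases (76.3%) and in control in 7 (2.77%). Of the 18 HIRA-only peaks there, 14 were in the DAXX list (77.8%) and 1 in control. The HIRA-only pericentromeric peaks were in the DAXX list in 68 of 130 cases (52.3%) and in control in 26. For the HJURP-only pericentromeric peaks it was 32 of 58 (55.2%) and 6. The DAXX shares of both classes were thus close at each of these places. They differed on other arms, at 12% of HIRA-only and 35.8% of HJURP-only peaks. On other arms, 53 of 75 HIRA-only peaks (70.7%) and 28 of 53 HJURP-only peaks (52.8%) were in no other list. The 12p segment held 44 of the former and 17 of the latter. The order was the other way in pericentromeric DNA, at 23.1% of HIRA-only and 31.0% of HJURP-only peaks, and at 8q24, at 11.1% and 18.2%. No HJURP-only peak on the other arms was in control, 0 of 53, for which the Wilson upper bound is 6.76%.

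Distances showed how far the set-specific peaks lay from the other list. HIRA-only peaks were a median of 4.25 kb from the nearest HJURP knockdown peak, and HJURP-only peaks 3.68 kb from the nearest HIRA knockdown peak. Within 10 kb lay 61.4% and 69.5% of them. On the other arms the distances were larger, with medians of 27.6 and 15.3 kb. Beyond 1 Mb lay 12 HIRA-only and 5 HJURP-only peaks, and 3 of each class had no ectopic peak of the other list on their chromosome.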

How the data were processed

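CENP-A ChIP and input DNA from SW480 cells was sequenced by the authors, who, per the study's methods and the submitters' processing notes, trimmed reads (Trimmomatic), aligned them to hg19 with Bowtie2 2.2.6, kept alignments of mapping quality 10 or more, called peaks with MACS against input, and merged peaks of replicates. The deposited lists keep merged peaks that at least 3 replicates called. The rule for the double knockdowns is not given in the sources used here. The deposited files give chromosome, start and end, with no count or score, and 0 columns of per-sample values were left unused. Read totals were not analysed here.

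Ectopic peaks shared no base with a centromere band of hg19, with coordinates set down from general knowledge, since no band table was used. This boundary was taken over from earlier work on these data, in which its sums had been seen beside the study's. Stretches of N in a centromere band, 2 Mb or longer, were the centromere gaps. The members and lists were chosen with earlier results of these data known. Coverage was the sum of peak lengths. Overlaps, distances and Wilson intervals were computed in Python 3.11.15 with numpy 2.4.6 and scipy 1.17.1, and the base intersection was checked with bedtools 2.31.1, which gave 497.2 kb as well. The code was tested on 200 simulated pairs of interval sets, and all 200 gave exact counts. Sequences were read from GRCh37 with pysam 0.24.0 and figures drawn with matplotlib 3.10.9. Genes are from GENCODE release 44 lifted to GRCh37, and a gene held a peak when they shared a base.

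Named regions were the 5 widest peaks of each class outside 8q24 and 3 of each inside. Named genes were an 8q24 list, a pathway list, the 10 genes with most ectopic peaks and up to 15 protein-coding genes with an exon at a set-specific peak. The 12p segment and its genes were added after the values were seen. No test between conditions was run. Alternatives are given with the limits.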

Additional observations from a re-analysis of the deposited data

How the results depend on the processing

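No paired analysis was possible because a condition is 1 merged list, which keeps no replicate apart and holds no score, so leaving out a replicate and a stricter score were not run. The lists do not show how library depth entered them. Shares were compared with their main interval, and ratios by a factor of 1.5.

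Removing chromosome 8 moved all 6 of the main shares and ratios: the ratio of HJURP to HIRA knockdown turned to 0.806 by peaks and 0.805 by bases, 57.7% of HIRA and 71.6% of HJURP knockdown peaks were shared, and 60.5% and 75.2% of their bases. With peaks 5 Mb or more from a gap alone, the ratio of bases was 2.04, 34.2% of HJURP knockdown peaks were shared, and 76.2% of HIRA and 37.4% of HJURP knockdown bases. With sites within 10000 bp in place of peaks, the ratio of numbers turned to 0.854, and the shared part was 60.9% for HIRA and 61.0% for HJURP knockdown. Joining peaks within 1000 bp gave 60.4% for HIRA knockdown and a ratio of peak numbers of exactly 1.

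Of the main shares, those below also left their interval. With all deposited peaks, 57.4% of HJURP knockdown peaks and 56.2% of their bases were shared, and with assembly gaps as the boundary 57.4% and 56.1%. Requiring 50% of a peak to be covered gave 47.1% of HJURP knockdown peaks, and peaks of 500 bp or more gave 70.4% of HIRA knockdown peaks. Extending peaks by 500 bp gave 72.9% and 64.1% of HIRA and HJURP knockdown peaks. Without the widest 1%, 63.7% and 47.8% of the bases were shared. Without the 12p segment, an alternative chosen after seeing the data, 70.2% of HIRA knockdown peaks and 74.2% of their bases were shared. The remaining 29 comparisons of the main shares and ratios stayed within their interval or factor. Of the comparisons of shares at 8q24, shares in the control and DAXX lists, and ratios by place, 66 stayed within theirs and 22 did not. Over the alternatives, 28.1% to 82.7% of HJURP-only and 0% to 19.4% of HIRA-only peaks or sites lay at 8q24, 45.9% to 70.8% of HJURP-only and 18.7% to 51.2% of HIRA-only ones were in the DAXX list, and 1.56% to 5.94% and 4.30% to 17.4% in control. The pericentromeric ratio stayed below 1, from 0.783 to 0.892, under each alternative that could give it, and the 8q24 ratio ranged from 1, by sites, to 2.47. Apart from the peaks that each alternative removes or joins by its construction, the cause of a shift was not tested.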
